A study of Mus musculus with 2 samples.

Results

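Myc, the 3 Gadd45 genes, Cdkn1a, Gdf15 and the transcription factor genes Atf3, Jun, Fos and Egr1 were followed through the cell classes of mouse liver, in a library labelled SLC22A18-/- (KO) and a library labelled SLC22A18+/+ (WT). They are 10 of the 33696 genes listed, taken by gene symbol. The set was put together with the differences of Myc, Gadd45g and Gdf15 between the libraries in hepatocytes already known, so hepatocyte values are a description. Myc is a growth-promoting transcription factor that pairs with Max and binds E-box sequences, and it is kept low in resting liver. Gadd45 proteins, Cdkn1a and the hormone Gdf15 are made after DNA damage and other stress, while Fos, Jun, Egr1 and Atf3 are switched on within minutes of a stimulus, tissue dissociation included.

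Each genotype was represented by 1 droplet library of liver tissue, made with a Chromium 3' kit, so there were no replicates and no test was run. The sources used here state no strain, age, sex or number of animals, nor which exons were removed. Slc22a18 itself was detected in both libraries, with 21.4 CPM (a gene's UMIs scaled to a fixed total) from 2051 UMIs in KO and 24.4 CPM from 2353 UMIs in WT, so the counts did not verify the label. A difference between the libraries cannot be told apart from one between animals, backgrounds or dissociations.

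The libraries held 103478998 UMIs in KO and 105556354 UMIs in WT, and 11104 KO cells and 12002 WT cells were kept, with medians of 5848 and 5344.5 UMIs. The libraries shared 38 cell barcodes. Cells fell into 32 clusters, and 8 classes named by markers had at least 100 cells in each library. Hepatocytes numbered 3075 in KO and 3163 in WT, with medians of 5426 and 4980 UMIs; cluster 11 was the largest hepatocyte cluster in KO and cluster 10 in WT. T cells were shallower in KO, with medians of 2149 UMIs in KO and 4009 UMIs in WT. Hepatocytes had 31915 CPM of the nuclear RNA Malat1 in KO and 32000 CPM in WT, beside 6443 and 6898 CPM in endothelial cells. The median mitochondrial share was 0.923% in KO hepatocytes and 0.935% in WT hepatocytes, beside 4.23% and 4.37% in endothelial cells. The part of these gaps in level differences between hepatocytes and other classes was not tested. A gene is called higher or lower below when its summed UMIs reached 50, its CPM ratio KO over WT was at least 2 in either direction, the exact 95% interval of the ratio excluded 1, and at least 5% of the cells held a UMI in the library where it was higher. Intervals cover counting error only.

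In hepatocytes Myc and Gadd45g were higher and Gdf15 was lower in the KO library, while the other 7 genes did not pass the size rule. Over all 14610 genes with enough UMIs in hepatocytes, 0.294% were higher and 0.137% lower by the same rule; since these genes were chosen on this contrast, nothing is read from the count of 2 higher and 1 lower among 10. The 3 calls held under each of 17 other settings of the analysis, but not all of these could have lost a call. Those with a lower minimum of UMIs, ratio or share of cells only loosened the rule. Keeping mixed clusters, or leaving out clusters of low depth, left the hepatocyte values of these 3 genes unchanged. Over all cells together 0 of the 10 passed, beside 0.148% higher and 0.0580% lower of all genes, with ratios of 1.45 for Myc, 1.35 for Gadd45g and 0.914 for Gdf15.

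Myc (ENSMUSG00000022346, GRCm38 chromosome 15, 61985391 to 61990374, plus strand) gave 699 UMIs in KO hepatocytes and 91 UMIs in WT hepatocytes. Its level was 26.8 CPM (24.8 to 28.8) in KO and 3.42 CPM (2.76 to 4.20) in WT, a ratio of 7.81 (6.27 to 9.83). The intervals of the 2 levels lay far apart. In the WT library hepatocytes and monocytes (3.28 CPM) had the lowest levels of the 8 classes and did not differ beyond their intervals. In the KO library the hepatocyte interval overlapped those of Kupffer cells, the resident liver macrophages (29.7 CPM), NK/ILC1 cells, innate lymphocytes (25.7 CPM), and T cells (22.6 CPM). B cells had the highest Myc level of the 8 classes in both libraries, 114 CPM in KO and 96.1 CPM in WT.

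No other class had a Myc ratio past the size rule. The ratio was 1.06 (0.915 to 1.22) in endothelial cells, 1.19 (1.01 to 1.40) in B cells, 0.829 (0.615 to 1.12) in T cells and 0.909 (0.498 to 1.63) in NK/ILC1 cells. Kupffer cells had 29.7 CPM in KO and 37.4 CPM in WT, a ratio of 0.796 (0.692 to 0.916). Stellate-like cells had 35.7 CPM and 27.5 CPM, a ratio of 1.30 (1.04 to 1.61). That class was named by stellate and fibroblast markers. It joins cluster 5, with Dcn, Reln and Colec11 among its leading genes, and the smaller cluster 28, with Col1a1, Acta2, Tagln and Myh11. Monocytes gave 8 UMIs in KO and 4 UMIs in WT, too few to compare. A UMI of Myc was found in 16.1% of KO hepatocytes and 2.59% of WT hepatocytes. No class was taken to lack Myc; the lowest shares, in monocytes, were 3.30% in KO and 1.64% in WT at median depths of 4716.5 and 3629.5 UMIs. After thinning to 2774 UMIs per cell, which left out 507 KO and 740 WT hepatocytes, the shares were 7.52% (6.53 to 8.60) in KO hepatocytes and 0.949% (0.603 to 1.42) in WT hepatocytes.

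**Figure D1:**
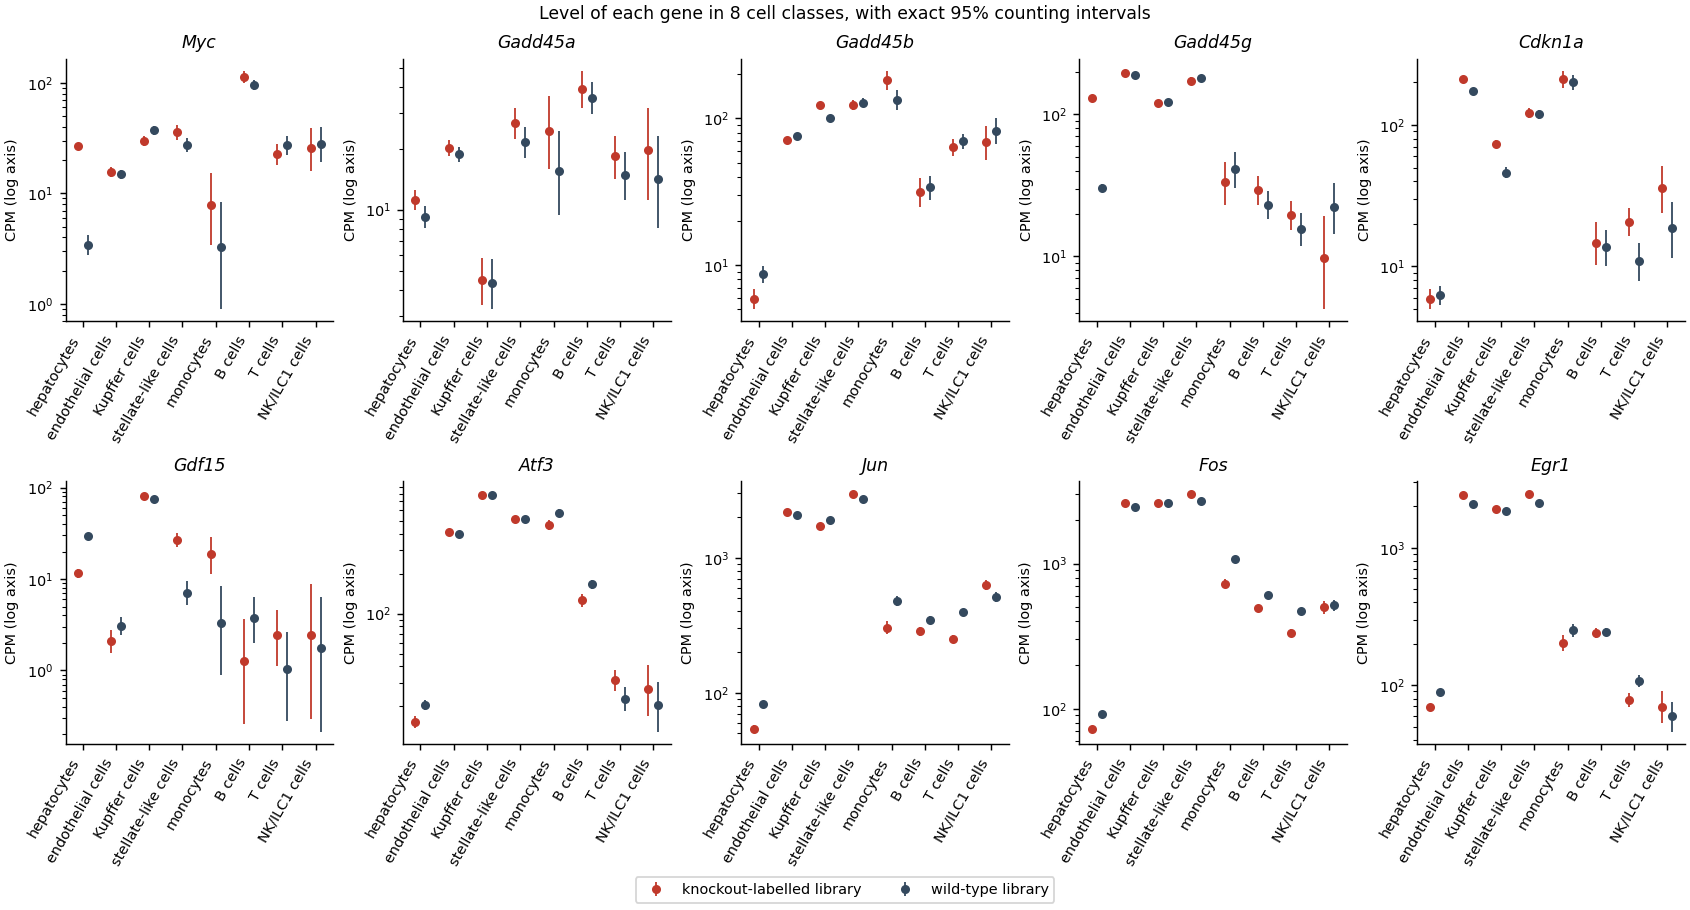
Level of each gene in CPM (log axis) in 8 cell classes, KO in red to the left of WT in dark blue, with exact 95% counting intervals as bars. The Myc and Gadd45g points of hepatocytes stand apart between the libraries, at 26.8 and 3.42 CPM and at 130 and 30.4 CPM.

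Of the 3 Gadd45 genes, Gadd45g alone passed the size rule in hepatocytes. They encode small proteins of one family that bind the stress kinase Map3k4 and the replication clamp Pcna. Promoters were examined for 8 of the 10 genes, and those of Myc and Egr1 were not examined. Promoter sequences (300 bases, GRCm38.p6, RefSeq; 250 before to 50 after the start) are shown for the 3 paralogs because their hepatocyte values differ. Capitals mark CACGTG, an E-box that Myc and Max can bind, TATAAA, or a p53 half-site, found by searching both strands; matches do not overlap. TGACGTCA, TGANTCA, TTCNNNGAA and the CArG box were also searched and have no match in these windows.
Gadd45g, chr13:51846425-51846724, plus strand: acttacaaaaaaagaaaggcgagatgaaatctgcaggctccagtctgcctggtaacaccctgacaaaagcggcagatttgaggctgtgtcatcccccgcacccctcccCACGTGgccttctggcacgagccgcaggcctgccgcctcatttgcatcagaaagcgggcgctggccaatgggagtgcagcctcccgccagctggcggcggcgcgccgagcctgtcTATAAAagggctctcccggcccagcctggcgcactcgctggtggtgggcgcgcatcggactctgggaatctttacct
Gadd45b, chr10:80929841-80930140, plus strand: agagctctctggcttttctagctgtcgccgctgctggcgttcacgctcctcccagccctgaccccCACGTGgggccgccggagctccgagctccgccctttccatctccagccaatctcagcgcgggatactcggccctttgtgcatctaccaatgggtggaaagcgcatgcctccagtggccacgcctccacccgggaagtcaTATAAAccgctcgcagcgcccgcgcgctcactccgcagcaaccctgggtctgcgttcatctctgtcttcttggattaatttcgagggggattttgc
Gadd45a, chr6:67037358-67037657, minus strand: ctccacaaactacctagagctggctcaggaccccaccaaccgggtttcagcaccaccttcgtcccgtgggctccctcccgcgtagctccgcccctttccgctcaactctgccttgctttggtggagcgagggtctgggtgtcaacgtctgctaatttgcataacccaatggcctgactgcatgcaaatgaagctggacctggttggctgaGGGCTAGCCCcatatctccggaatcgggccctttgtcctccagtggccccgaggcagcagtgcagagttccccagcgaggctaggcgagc
Gadd45g and Gadd45b both hold CACGTG and TATAAA, Gadd45a neither, and the p53 half-site is in Gadd45a alone of the 3. Over all 32851 promoters of this length, 7.15% hold CACGTG, 13.6% TATAAA and 8.36% a p53 half-site, and a match describes the letters only.

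Gadd45g (ENSMUSG00000021453, chromosome 13, 51846678 to 51848468, plus strand) gave 3409 UMIs in KO hepatocytes and 807 UMIs in WT hepatocytes. Its level was 130 CPM in KO and 30.4 CPM in WT, a ratio of 4.30 (3.98 to 4.64). KO hepatocytes thus stood beside Kupffer cells (121 CPM in KO), below endothelial cells (197 CPM) and stellate-like cells (171 CPM). WT hepatocytes could not be separated from monocytes (41.0 CPM), B cells (23.1 CPM) or NK/ILC1 cells (22.1 CPM). Endothelial cells had 197 CPM in KO and 191 CPM in WT, Kupffer cells 121 CPM and 122 CPM, and stellate-like cells 171 CPM and 180 CPM, with ratios between 0.953 and 1.03. The intervals of these 3 ratios include 1. A UMI was found in 45.9% of KO hepatocytes and 15.5% of WT hepatocytes, or in 28.9% (27.1 to 30.7) and 7.10% (6.11 to 8.19) after thinning; the lowest shares of any class were 4.20% in KO NK/ILC1 cells and 5.94% in WT T cells, at median depths of 5477 and 4009 UMIs.

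Gadd45a and Gadd45b did not pass the size rule in any class. Gadd45a (chromosome 6, 67035096 to 67037457, minus strand) had 11.1 CPM in KO hepatocytes and 9.18 CPM in WT hepatocytes, a ratio of 1.21 (1.02 to 1.44). Its level was highest in B cells (39.4 CPM in KO, 35.6 CPM in WT) and lowest in Kupffer cells (4.47 CPM and 4.34 CPM), and its ratios in the 8 classes lay between 1.03 and 1.57. Gadd45b (chromosome 10, 80930073 to 80932204, plus strand) had 5.90 CPM in KO hepatocytes and 8.69 CPM in WT hepatocytes, a ratio of 0.678 (0.549 to 0.835) that did not pass the rule. Hepatocytes were the lowest class for Gadd45b in both libraries, at 3.23% of the monocyte level in KO and 6.51% in WT. Genes on the other strand overlap Gadd45a, Cdkn1a, Jun and Atf3. The sources used here state no strand setting for the counting, and whether it kept reads of such pairs apart was not checked.

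Cdkn1a encodes p21, the inhibitor of cyclin-dependent kinases that p53 induces. Cdkn1a (chromosome 17, 29090976 to 29100727, plus strand) had 153 UMIs and 5.86 CPM in KO hepatocytes and 166 UMIs and 6.25 CPM in WT hepatocytes, a ratio of 0.937 (0.748 to 1.17). Hepatocytes were its lowest class in both libraries, with endothelial cells (211 CPM in KO, 173 CPM in WT) and monocytes (211 CPM and 201 CPM) highest. In Kupffer cells it had 73.7 CPM in KO and 46.0 CPM in WT, a ratio of 1.60 (1.44 to 1.78). T cells had 20.7 CPM and 10.9 CPM, a ratio of 1.90 (1.29 to 2.84), and NK/ILC1 cells 35.5 CPM and 18.6 CPM, a ratio of 1.91 (1.05 to 3.53). These values fell short of a ratio of 2. Under other settings the Cdkn1a ratio passed in T cells in 3 of 17, in Kupffer cells in 2 of 17 and in NK/ILC1 cells in 1 of 17. In each class these include the lower ratio limit of 1.5, which the ratios above already exceed.

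Gdf15, a circulating stress hormone that acts on appetite through the receptor Gfral, was lower in KO hepatocytes and, under 12 of 17 other settings only, higher in KO stellate-like cells. Gdf15 (chromosome 8, 70629393 to 70632456, minus strand) gave 302 UMIs in KO hepatocytes and 781 UMIs in WT hepatocytes. Its level was 11.6 CPM in KO and 29.4 CPM in WT, a ratio of 0.393 (0.343 to 0.450). Endothelial cells had 2.08 CPM in KO and 3.05 CPM in WT, which did not pass the size rule. Of the 8 classes, 5 had a Gdf15 ratio above 1. The interval lay above 1 in 2 classes and below 1 in 2. A UMI was found in 7.51% of KO hepatocytes and 15.3% of WT hepatocytes, and after thinning in 2.84% (2.23 to 3.56) and 6.64% (5.69 to 7.71). The lowest shares of any class were 0.413% in KO B cells and 0.457% in WT T cells, at median depths of 3170 and 4009 UMIs. The promoter table has 2 starts for Gdf15. The upstream one, whose window spans the annotated gene start, has no match to any sequence searched. The downstream one is shown because it holds CACGTG, in capitals.
Gdf15, chr8:70632046-70632345, minus strand: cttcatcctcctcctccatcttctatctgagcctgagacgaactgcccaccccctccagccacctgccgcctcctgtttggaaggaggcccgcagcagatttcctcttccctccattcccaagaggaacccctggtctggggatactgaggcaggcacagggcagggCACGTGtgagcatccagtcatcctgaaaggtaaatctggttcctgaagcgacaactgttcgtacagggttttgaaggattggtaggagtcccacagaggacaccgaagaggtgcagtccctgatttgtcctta

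Kupffer cells had the highest Gdf15 level of the 8 classes, 81.4 CPM in KO and 75.4 CPM in WT, a ratio of 1.08 (0.985 to 1.18), and it was found in a small share of them. A UMI was found in 11.6% of KO Kupffer cells and 12.96% of WT Kupffer cells, up to 52 UMIs in a KO cell and 51 UMIs in a WT cell. The 1% of Kupffer cells with the most Gdf15 held 41.0% of its UMIs in KO and 35.9% in WT. Stellate-like cells gave 131 UMIs and 26.7 CPM in KO and 44 UMIs and 7.12 CPM in WT, a ratio of 3.75 (2.65 to 5.41), the only one of 70 pairs of a gene and another class to pass the size rule. The shares of stellate-like cells with a UMI were 9.79% in KO and 7.78% in WT. Of these, 11 KO cells and 3 WT cells held 3 or more UMIs. The maximum was 27 UMIs in a KO cell and 8 UMIs in a WT cell. The 1% of stellate-like cells with the most Gdf15, 3 in KO and 4 in WT, held 47.3% and 38.6% of its UMIs. After thinning to 5399 UMIs the shares were 8.02% (4.90 to 12.2) in KO and 2.86% (1.24 to 5.55) in WT.

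The stellate-like difference in Gdf15 was seen in both clusters of the class, with ratios of 4.16 in cluster 5 and 2.99 in cluster 28. It was called under only 12 of 17 other settings, among them those that only loosened the rule. The log2 ratio of 1.90 was 0.72 with each cell weighted equally, 0.85 and 0.07 at clustering resolutions of 2.0 and 0.5, 0.06 with clusters of mixed leading genes kept, and -0.019 with a higher minimum of UMIs per cell. It was 1.13 and still called with doublet calls kept. Kupffer markers, summed over 12 genes with none at 0, stood at 10.6% of their Kupffer cell level in KO stellate-like cells and 7.50% in WT stellate-like cells, and endothelial markers at 42.6% and 45.3% of their endothelial level. Their part in the Gdf15 values was not tested. Monocytes gave 19 UMIs in KO and 4 UMIs in WT, a ratio of 5.68 (1.89 to 23.0), below the minimum of 50 UMIs.

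The immediate early genes were abundant in endothelial, Kupffer and stellate-like cells of both libraries and low in hepatocytes. Hepatocytes also had more Malat1 and a lower mitochondrial share than these classes, and the part of this in the contrast was not tested. Fos and Jun encode partners in the AP-1 factor, Egr1 a zinc finger activator, and Atf3 a stress-induced factor of the ATF family. Fos (chromosome 12, 85473890 to 85477273, plus strand) had 2633 CPM in KO endothelial cells and 2451 CPM in WT endothelial cells, 2619 CPM and 2609 CPM in Kupffer cells, and 2996 CPM and 2689 CPM in stellate-like cells. Ratios of these 4 genes in the 3 classes lay between 0.895 and 1.17. Hepatocytes had 72.8 CPM of Fos in KO and 92.5 CPM in WT, a ratio of 0.787 (0.741 to 0.836), which is 2.43% and 3.44% of the stellate-like level.

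Jun, Egr1 and Atf3 had hepatocyte ratios on the same side of 1 as Fos. Jun (chromosome 4, 95049034 to 95052222, minus strand) had 54.3 CPM in KO hepatocytes and 82.3 CPM in WT hepatocytes, a ratio of 0.659 (0.616 to 0.705). Egr1 (chromosome 18, 34859823 to 34864984, plus strand) had 69.6 CPM and 89.9 CPM, a ratio of 0.774 (0.728 to 0.823). Atf3 (chromosome 1, 191170296 to 191218039, minus strand) had 15.3 CPM and 20.4 CPM, a ratio of 0.751 (0.658 to 0.856). None passed the rule. In hepatocytes the summed endothelial markers stood at 2.40% of their endothelial level in KO and 2.50% in WT, and the Kupffer markers at 1.11% and 1.03% of their Kupffer level. Jun was at 1.84% and 3.04%, Atf3 at 1.94% and 2.62%, and Egr1 at 2.85% and 4.26% of the highest class, which was Kupffer cells for Atf3 and stellate-like cells for Jun and Egr1. What share of these levels is free RNA was not tested. Myc stood at 23.5% of its B cell level in KO hepatocytes and 3.56% in WT hepatocytes, beside B cell markers at 0.222% and 0.352%.

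Jun and Fos had ratios below 1 in T cells, monocytes and B cells. T cells had 252 CPM of Jun in KO and 397 CPM in WT, a ratio of 0.635 (0.585 to 0.689), and a Fos ratio of 0.711 (0.661 to 0.765). Monocytes had 304 CPM of Jun in KO and 480 CPM in WT, a ratio of 0.633 (0.550 to 0.728), and a Fos ratio of 0.677 (0.618 to 0.741). B cells had a Jun ratio of 0.821 (0.746 to 0.902) and a Fos ratio of 0.810 (0.754 to 0.871). In NK/ILC1 cells the Jun ratio was 1.22 (1.08 to 1.37) and the Fos ratio 0.969 (0.852 to 1.10). None passed the rule, and the T cell values stand beside the depth gap of the T cells.

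Across the 7 classes other than hepatocytes, 61 of 70 pairs of a gene and a class had at least 50 UMIs. The pair of Gdf15 and stellate-like cells passed upward and 0 pairs passed downward. The background shares of all genes tested, higher and then lower, were 0.0431% and 0.0503% in endothelial cells, 0.0973% and 0.114% in Kupffer cells, 0.468% and 0.376% in stellate-like cells and 2.30% and 0.867% in monocytes. They were 0.0758% and 0.357% in B cells, 1.05% and 0.159% in T cells, and 0.291% and 0.836% in NK/ILC1 cells. The median log2 ratio of the 10 genes was -0.36 in hepatocytes, beside 0.06 over all genes measured there. It was 0.09 in endothelial cells beside -0.02, 0.03 in Kupffer cells beside -0.04, and 0.14 in stellate-like cells beside -0.02. It was -0.11 in monocytes beside -0.01, and -0.06 in B cells beside -0.01. It was 0.08 in T cells beside 0.04, and 0.26 in NK/ILC1 cells beside -0.02. Since the set was chosen with hepatocyte differences known, the hepatocyte median is a description only.

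**Figure D2:**
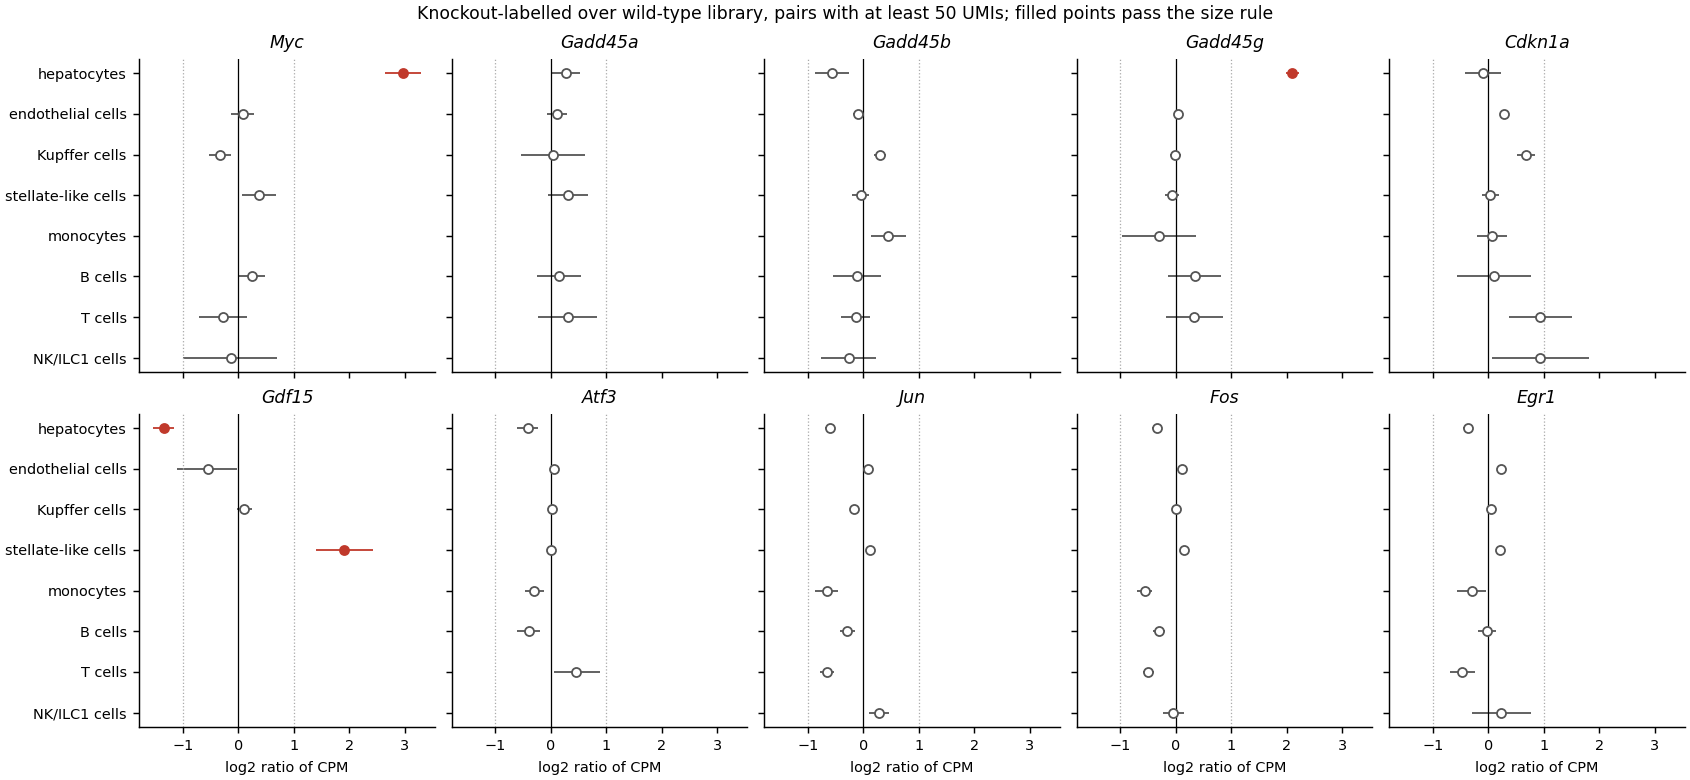
Log2 ratio of CPM, KO over WT, of each gene in each class with at least 50 UMIs, with exact 95% counting intervals as bars and dotted lines at a ratio of 2 in either direction. Filled red points pass the size rule: Myc and Gadd45g upward and Gdf15 downward in hepatocytes, and Gdf15 upward in stellate-like cells.

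The hepatocyte differences were present in each of the 5 hepatocyte clusters, which differ in zone and in Malat1. Myc ratios lay between 3.70 and 10.6, Gadd45g ratios between 2.14 and 6.72 and Gdf15 ratios between 0.354 and 0.454. Cluster 11, the largest in KO, had 33.5 CPM of Myc in KO and 3.16 CPM in WT, and cluster 10, the largest in WT, had 23.3 CPM and 2.88 CPM. In cluster 21, which was poor in the nuclear RNA Malat1 (1318 CPM in KO and 1376 CPM in WT), Myc had 9.32 CPM in KO and 1.93 CPM in WT, a ratio of 4.83 (2.26 to 11.5). Of the 5 clusters it had the lowest Myc level in both libraries, and the direction was the same. Cluster 12 took 19.6% of KO hepatocytes and 11.8% of WT hepatocytes, and giving the clusters the same weights in both libraries left log2 ratios of 2.88 for Myc, 2.19 for Gadd45g and -1.35 for Gdf15.

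Clusters 19 and 20 were left unnamed, since they carry the leading genes of hepatocyte clusters at 126% and 110% of the hepatocyte level beside Kupffer markers in cluster 19 and stellate markers in cluster 20. Myc had 33.8 CPM in KO and 4.94 CPM in WT in cluster 19, a ratio of 6.84 (3.004 to 19.2), and 30.2 CPM and 5.96 CPM in cluster 20, a ratio of 5.07 (3.41 to 7.82). The Gadd45g ratio was 4.08 in both, and the Gdf15 ratio 0.518 in cluster 19 and 0.360 in cluster 20.

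**Figure D3:**
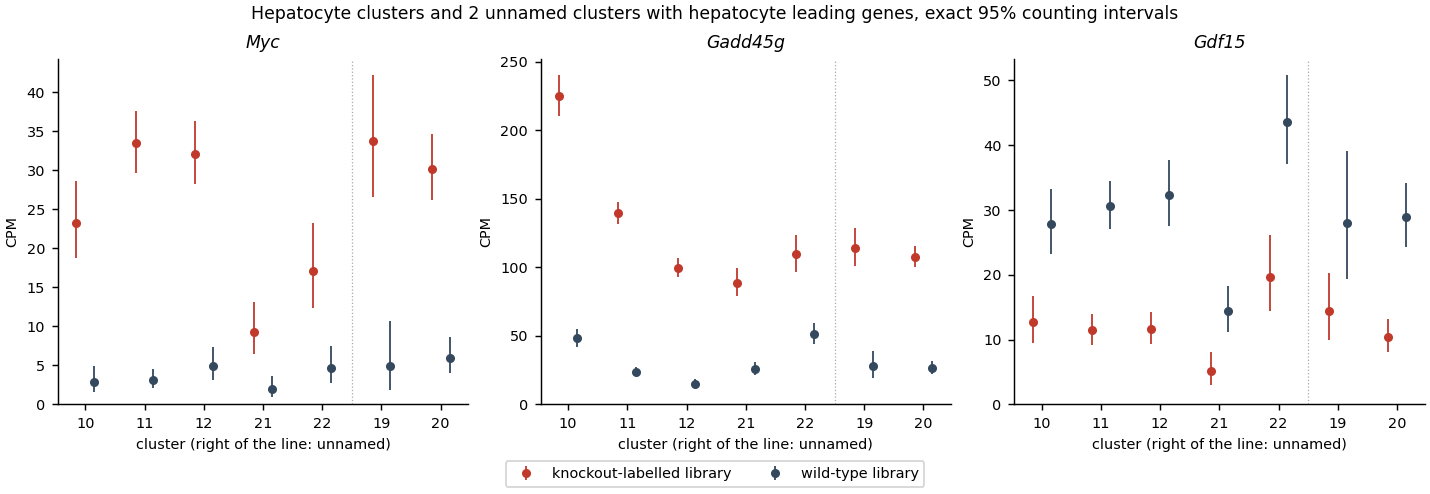
CPM of Myc, Gadd45g and Gdf15 in the 5 hepatocyte clusters and, right of the dotted line, the unnamed clusters 19 and 20, KO in red left of WT in dark blue, with exact 95% counting intervals. KO lies above WT for Myc and Gadd45g and below WT for Gdf15 in each cluster shown, with Myc in KO between 9.32 and 33.8 CPM.

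Most hepatocytes held no UMI of a given gene, but a few held many. Maxima were 35 UMIs of Jun in a KO cell and 71 in a WT cell, and 47 and 51 UMIs of Egr1. The 1% of hepatocytes with the most Jun held 26.8% of its UMIs in KO and 32.8% in WT, and for Atf3 28.8% and 36.7%. Myc was found as 3 or more UMIs in 45 KO hepatocytes and 0 WT hepatocytes, with at most 7 UMIs in a KO cell and 2 UMIs in a WT cell. Gadd45g was found as 3 or more UMIs in 475 KO hepatocytes (15.4%) and 67 WT hepatocytes (2.12%). The 1% of hepatocytes with the most UMIs of Myc held 16.3% of them in KO and 45.1% in WT, and for Gdf15 the shares were 29.1% and 23.2%. In a separate draw at the thinned depth Gadd45g was found in 31.8% of the 173 KO hepatocytes with Myc and in 29.5% of those without, close shares that were not tested. Among WT hepatocytes 25 cells held Myc at that depth and 3 of them Gadd45g, too few to compare.

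**Figure D4:**
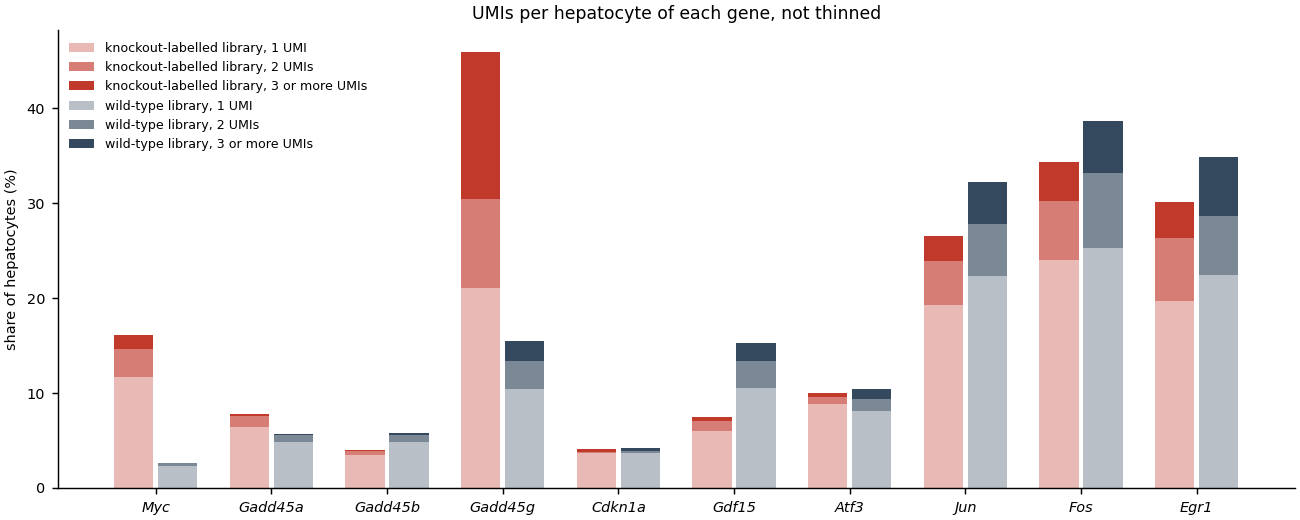
Share of hepatocytes (%) with 1, 2 and 3 or more UMIs of each gene, stacked from light to dark, KO in red left of WT in blue, without thinning. Gadd45g reaches 45.9% of KO hepatocytes and 15.5% of WT hepatocytes, while the bars of Cdkn1a are close, at 4.07% and 4.20%.

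Hepatocytes differ in function along the lobule, from the periportal to the pericentral side, and were divided in each library into 3 zones of nearly equal cell number by a score of pericentral over periportal marker UMIs. The zones are ranges of that score and not cell types, and 577 KO hepatocytes and 647 WT hepatocytes lay within 0.25 of a cut. Scored without it, Cyp2e1, a pericentral enzyme, had 242, 896 and 1602 CPM in the periportal, middle and pericentral KO zones and 163, 626 and 1290 CPM in the WT zones. Cluster 12 was the largest in the pericentral KO zone (47.8%) and the Malat1-poor cluster 21 in the pericentral WT zone (36.1%). Myc and Gadd45g were higher and Gdf15 lower in KO in each zone, beside backgrounds of 0.264% higher and 0.188% lower genes in the periportal, 0.449% and 0.236% in the middle and 0.547% and 0.326% in the pericentral zone. With 10 genes in 3 zones, 6 pairs passed upward and 3 downward. The periportal Gdf15 call, at a log2 ratio of -0.997, was lost when the score was cut more finely, at -0.965.

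Gadd45g was zoned in the same sense in both libraries. Its level from the periportal to the pericentral zone was 188, 128 and 89.9 CPM in KO and 40.7, 31.3 and 20.01 CPM in WT. The pericentral level was 0.479 (0.438 to 0.524) of the periportal one in KO and 0.492 (0.405 to 0.595) in WT, with overlapping intervals. The KO over WT ratios were 4.61, 4.09 and 4.49 in the 3 zones. Gdf15 ran the other way in WT, at 22.5, 27.3 and 38.3 CPM, a pericentral over periportal ratio of 1.70 (1.41 to 2.06). In KO it had 11.2, 9.998 and 13.7 CPM, a ratio of 1.22 (0.908 to 1.65) whose interval includes 1. The KO over WT ratios of Gdf15 were 0.499, 0.367 and 0.358, the first of them just past the size rule.

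Myc had 19.2, 29.9 and 28.8 CPM in the KO zones, lowest on the periportal side, with a pericentral over periportal ratio of 1.503 (1.21 to 1.87). In WT it had 3.04, 3.41 and 3.79 CPM, a ratio of 1.25 (0.707 to 2.23) from 32 and 23 UMIs, so no gradient was detectable at this depth. Jun and Egr1 had pericentral over periportal ratios of 1.29 (1.12 to 1.49) and 1.40 (1.24 to 1.59) in KO and 1.30 (1.17 to 1.45) and 1.33 (1.20 to 1.47) in WT. Cdkn1a had 1.31 (0.842 to 2.06) in KO and 1.74 (1.16 to 2.67) in WT. Whether gradients differed between the libraries was not tested.

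**Figure D5:**
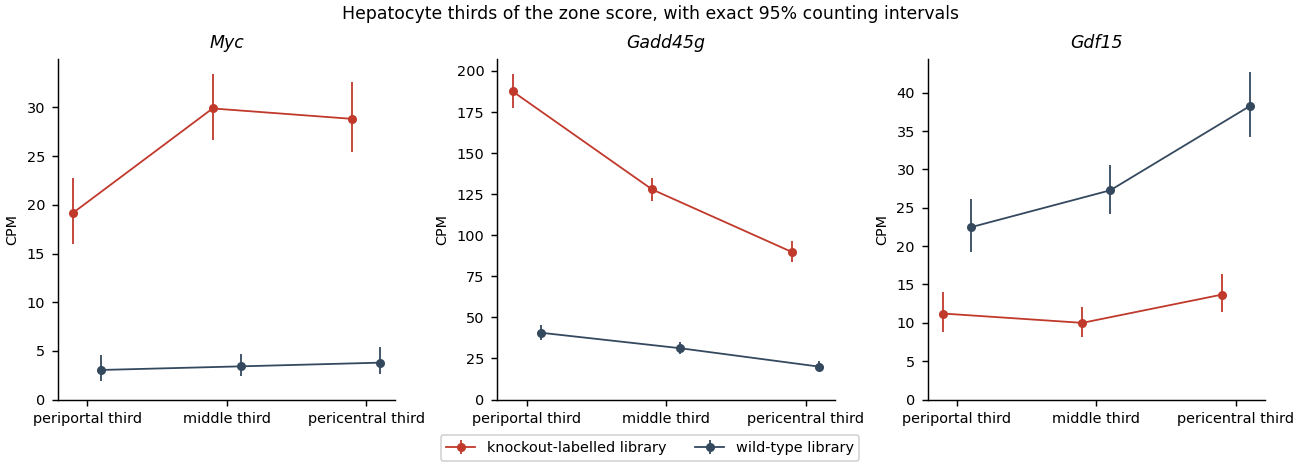
CPM of Myc, Gadd45g and Gdf15 in the periportal, middle and pericentral zones of hepatocytes, KO in red and WT in dark blue, with exact 95% counting intervals; the lines join zones of a library. Gadd45g declines from the periportal zone in both libraries, from 188 to 89.9 CPM in KO and from 40.7 to 20.01 CPM in WT.

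Genes that act with or after these 10 were read in hepatocytes from 8 lists, as counts by the size rule and medians of genes with at least 20 UMIs. Of 15 measured partners and regulators of Myc, 0 passed in either direction, and their median log2 ratio was 0.02; Huwe1, a ubiquitin ligase that targets Myc, had a ratio of 1.10 (1.06 to 1.13) and Mycbp2, a Myc-binding ubiquitin ligase, 1.06 (1.02 to 1.11). Of 28 Myc targets of growth and ribosome making 0 passed, with 9 above 0 and a median of -0.13. Ldha, lactate dehydrogenase, had a ratio of 0.767 (0.735 to 0.800) and Hspd1, a mitochondrial chaperone, 0.817 (0.789 to 0.846).

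The lists of stress genes gave no calls in hepatocytes either. Of 29 further immediate early genes, 0 passed and 5 lay above 0, with a median of -0.34; Zfp36 and Zfp36l1, which bring about decay of short-lived messenger RNAs, had ratios of 0.602 (0.576 to 0.628) and 0.617 (0.594 to 0.640). The same list had medians of -0.30 in T cells, -0.24 in monocytes, -0.13 in B cells, -0.09 in NK/ILC1 cells, -0.01 in endothelial cells, 0.03 in Kupffer cells and 0.07 in stellate-like cells. Of 24 p53 targets 0 passed, with a median of -0.19; Mdm2, the ubiquitin ligase of p53, had a ratio of 1.05 (0.992 to 1.10) and Trp53inp1, a p53-induced cofactor, 0.546 (0.513 to 0.580). Of 24 genes of the integrated stress response 0 passed, with a median of -0.16, Cth, an enzyme of cysteine synthesis, at 0.850 (0.832 to 0.868) and Cebpb, a transcription factor, at 0.806 (0.773 to 0.841).

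The remaining lists concern the kinases downstream of Gadd45 proteins, the cell cycle and cytokine feedback. Of 17 stress kinase and partner genes 0 passed, with a median of 0.10, Map3k5 at 1.04 (1.01 to 1.08) and Mapk14, the p38 kinase, at 1.15 (1.11 to 1.20). Of 13 cyclin-dependent kinase inhibitors and cyclins of G1 0 passed, with a median of -0.06, Ccnd3 at 0.963 (0.921 to 1.01) and Cdk6 at 1.09 (1.03 to 1.14). Cytokine receptor feedback was the list with calls, 2 higher and 0 lower of 14, with a median of 0.17, beside 0.294% higher and 0.137% lower of all genes in hepatocytes. These were Socs2, with 87.7 CPM in KO hepatocytes and 24.4 CPM in WT hepatocytes (ratio 3.602, 3.30 to 3.94), and Cish, with 43.9 CPM and 18.1 CPM (ratio 2.42, 2.17 to 2.70), both inhibitors induced by STAT5. Socs2 and Cish were known from earlier results of these data, so their calls are no independent evidence. In other classes the 8 lists gave Ckap2 (3.34), Ccnb1 (2.71), Cdk1 (2.33) and Cdkn2c (2.28), genes of dividing cells, as higher in T cells, where 1.05% of all genes were higher. Max, the Myc partner, was higher in monocytes (2.42), 1 of 13 measured genes of the Myc list, where 2.30% of all genes were higher.

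The class profiles of 5 of the genes were compared with those of 15803 genes, over 16 profiles of class and library, as Pearson's r of log2(CPM + 1). The closest to Fos were Fosb (0.987), Cenpb (0.981) and Rhob (0.971), and Jun reached 0.970 with Fos. The closest to Gadd45g were Tlr3 (0.940), Fer (0.935) and Rab14 (0.934), and of the set Egr1 (0.830). The closest to Cdkn1a were Cnih4 (0.962), Phactr2 (0.959) and Prr5l (0.959), and to Gdf15 Cadm1 (0.942), Pdgfc (0.929) and Ppnr (0.926). Myc had no gene above 0.826, which was Atxn7l2, followed by Zfp934 (0.822) and Zmynd11 (0.812), and within the set it lay between -0.316 with Cdkn1a and 0.279 with Gadd45a. Profiles of a class share their cells and free RNA, so these values only describe the libraries.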

How the data were processed

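The authors deposited unnormalized UMI counts for each gene in each barcode, written by Cell Ranger 8.0.1 per the file headers, with lists of genes and barcodes. STAR and the mm10 build are named in the submitters' processing notes. The genes and lists were chosen with earlier results of these data known.

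Cells with at least 500 UMIs, at least 300 genes and at most 20% mitochondrial UMIs were kept. Doublets were scored with Scrublet in scanpy 1.11.5, and calls above 0.276 (354 in KO, 429 in WT) were removed. The 2 libraries were clustered jointly with no batch integration, on 2000 variable genes without the 10 genes and related stress lists, with 30 components, 15 neighbours and resolution 1. Clusters were named by mean log2 ratio of marker lists, with at least 3 markers in 10% of cells. Clusters with a median doublet score of at least 0.15, a second class or 50% of the level of hepatocyte leading genes stayed unnamed. So did clusters with more leading genes from another class's markers, as in cluster 6, or with low UMIs and no leading marker. Unnamed clusters held 8.31% of KO and 7.10% of WT cells. These naming limits were set after seeing the data.

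UMIs were summed per class and library and divided by the class total (CPM), since cells are not replicates. Ratios and shares carry exact Clopper-Pearson 95% intervals and levels exact Poisson intervals, for counting error only. Log2 ratios add 0.5 to each sum. Shares of cells were repeated with cells thinned to a depth set at percentile 20 of the class. Free RNA was not subtracted. All 10 genes were named, from each list those past the size rule or the 2 with the most UMIs, and the 3 closest profiles among genes with at least 200 UMIs. Genes were placed with GENCODE on GRCm38. The procedure was tested on simulated data.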

Additional observations from a re-analysis of the deposited data

Results flagged for a closer look

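Several values point in different directions between classes, and none of these differences was tested. Myc had a ratio of 0.796 in Kupffer cells, where the interval lies below 1, and 7.81 in hepatocytes. Gdf15 had a ratio of 3.75 in stellate-like cells and 5.68 in monocytes, the second from 23 UMIs in all, and 0.393 in hepatocytes.

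Cells left out of the class comparisons also carried signals. In the unnamed cluster 19 the ratios were 6.84 for Myc, 4.08 for Gadd45g and 2.54 for Atf3, the last from 62 KO and 13 WT UMIs. Cluster 20 gave 5.07 for Myc and 4.08 for Gadd45g. In cluster 9, whose leading genes are those of dividing cells, ratios were 2.44 for Gadd45g and 2.07 for Cdkn1a, beside 13455 CPM of Malat1 in KO and 23379 CPM in WT; the part of this in the ratios was not tested. That cluster also carries hepatocyte leading genes at 60.9% of the hepatocyte clusters' level.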

How the results depend on the processing

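No paired analysis was possible because each genotype has 1 library, and no library could be left out. Of 17 alternatives, 2 were chosen after seeing the data (mixed clusters kept, clusters of low depth left out). Alternatives that only loosened the size rule could not lose a call. In hepatocytes log2 ratios ranged from 2.69 to 3.57 for Myc, 1.91 to 2.33 for Gadd45g and -1.50 to -1.30 for Gdf15; the ends 3.57, 2.33 and -1.50 come from leaving out the 1% of cells richest in each gene, which takes a larger share of UMIs from the lower library. With a ratio of at least 1.5, Jun was also lower, giving 2 lower, and in other classes 4 pairs were higher and 2 lower, against 1 and 0. Pairs higher in other classes numbered 0 with a higher minimum of UMIs per cell, at resolutions 0.5 and 2.0 and with mixed clusters kept, and 2 with equal cell weights (Cdkn1a in Kupffer and T cells) or without the 1% of richest cells (Gdf15 in stellate-like cells, Cdkn1a in T cells). With the higher minimum 1 pair was lower (Gadd45b in T cells), and the Gdf15 log2 ratio in stellate-like cells turned to -0.019. The cause was not tested. Monocytes formed no class, and gave no value, at resolutions 0.5 and 2.0. Of the zone calls, that of Gdf15 in the periportal zone was lost with a finer division of the score, leaving 2 lower pairs against 3. Of 1430 single values compared, 106 left their interval and 74 changed sign, of which 1 had been called. The 1430 include values from alternatives that changed only the size rule. Those repeat the main values and could not move, so the counts understate how often values move. Depth limits Myc in WT hepatocytes, with 91 UMIs.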

Other observations

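Gdf15 gave 4 UMIs in KO and 42 UMIs in WT in the unnamed cluster 6, an endothelial-marked cluster led by Rspo3, Selp and Vwf, a ratio of 0.102 (0.0265 to 0.280). In the same cluster Cdkn1a had 165 CPM in KO and 91.0 CPM in WT, a ratio of 1.81 (1.43 to 2.30), and Gadd45g 223 CPM and 217 CPM. Among classes under 100 cells in a library, cholangiocyte-like cells, the bile duct lining, had high levels of several genes, with 98.3 CPM of Gdf15 in KO and 74.3 CPM in WT, 83.3 CPM and 68.7 CPM of Myc, and 2552 CPM and 1957 CPM of Atf3. In neutrophils Gadd45b had 524 CPM in KO and 702 CPM in WT. These classes were not compared between libraries.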
